A study of Mus musculus with 10 samples.

Results

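Neighbouring genes whose symbols were given to close transcription start sites (TSSs) listed as occupied by ARID2 are described here. A symbol did not always stand at its own gene's annotated start. ARID2 is a subunit of PBAF, one of the SWI/SNF chromatin remodelers, that the other SWI/SNF complexes lack. It was mapped by CUT&RUN, which sequences the fragments a nuclease cuts where an antibody holds it on chromatin. For each age a deposited list gave the TSSs that k-means clustering placed in the ARID2-enriched cluster as coordinates and symbols, without strand or signal. Members were chosen by those readouts: a listed position was a member when another listed position within 1000 bp in the same list carried a different symbol. The rule found 382 of 7144 distinct positions at P28 and 422 of 5193 at P28.5. Over both ages it found 498 of 8666 positions, which formed 153 gene pairs with 303 symbols.

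All samples were spermatogenic cells from testes of CD1 mice with synchronized spermatogenesis, taken at postnatal days P28 or P28.5. The mice had received WIN18,446, an inhibitor of retinoic acid synthesis, at 100 µg per g of body weight from P1 to P10, and 10 µl of retinoic acid at 10 µg per µl on P11. At each age there were 2 ARID2 libraries (ARID2), 1 BRG1 library with each of 2 antibodies (BRG1-G7 and BRG1-abcam) and 1 control without primary antibody (noIgG). The labels name no mutation in any sample. The cells were enriched for prophase-I and metaphase spermatocytes but not purified, so the signal came from a mixture, and the lists hold no expression values with which to check it. Since replicates were averaged before clustering, each list stood for 1 measurement per age, the lists do not give the depth behind a position, and no spread between replicates could be computed from them. All shares below are descriptions without a test, and the 95% Wilson intervals beside some of them cover counting error only.

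Genes placed head to head, on opposite strands with their 5′ ends close together, are common in mammals. Such genes share 1 stretch of open, usually CpG-rich chromatin from which RNA polymerase starts in both directions, so that a remodeler or a transcription factor bound there lies at the promoters of both. Words bound by ETS factors (CCGGAAG), NRF1 (GCATGCGC), YY1 (AAGATGGC), NFY (CCAAT) and SP1 (GGGCGG) are frequent in these promoters, while the TATA box (TATAAA) is rare. Genes of the spindle, the centrosome and the anaphase-promoting complex are among those that can lie head to head with a neighbour.

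The promoter sequences of some pairs show what the 2 symbols of a pair stood for. Each is the plus strand of GRCm38.p6, the assembly behind mm10, written 5′ to 3′, with every match to the 6 words above on either strand in capitals. Bases are counted from 1 at the left. The first set holds the divergent pairs that were listed at both ages and had the smallest distances, the most positions or a place among textbook head-to-head pairs.
Mcm4 and Prkdc: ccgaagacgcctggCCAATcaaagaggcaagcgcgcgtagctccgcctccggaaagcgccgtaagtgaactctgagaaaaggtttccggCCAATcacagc
Paics and Ppat: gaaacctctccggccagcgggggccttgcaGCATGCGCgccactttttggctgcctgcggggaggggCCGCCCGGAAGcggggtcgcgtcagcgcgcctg
Abce1 and Anapc10: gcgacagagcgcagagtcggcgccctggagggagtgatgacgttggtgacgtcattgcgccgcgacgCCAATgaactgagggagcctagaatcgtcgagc
Pigp and Ttc3: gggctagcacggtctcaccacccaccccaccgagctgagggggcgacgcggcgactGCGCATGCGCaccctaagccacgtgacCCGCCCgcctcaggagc
Klhdc3 and Mea1: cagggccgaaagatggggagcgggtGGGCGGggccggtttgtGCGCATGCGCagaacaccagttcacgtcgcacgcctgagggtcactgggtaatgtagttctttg
Cept1 and Dram2: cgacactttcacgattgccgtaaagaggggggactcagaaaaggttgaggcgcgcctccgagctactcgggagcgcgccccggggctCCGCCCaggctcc
Mbtd1 and Utp18: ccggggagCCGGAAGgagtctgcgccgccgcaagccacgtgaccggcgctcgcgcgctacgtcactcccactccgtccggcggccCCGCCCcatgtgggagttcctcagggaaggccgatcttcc

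Mcm4, a subunit of the replicative helicase, and Prkdc, the catalytic subunit of DNA-dependent protein kinase, met at chr16:15637373-15637472. Leftward transcription of Mcm4 started at base 28 and rightward transcription of Prkdc at base 72, 44 bp apart. The listed position named Mcm4 was base 71. It lay 1 bp from the Prkdc start and 43 bp outside Mcm4.

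Paics and Ppat, which encode enzymes of de novo purine synthesis, met at chr5:76951518-76951617, with the Ppat 5′ end at base 61 and a Paics 5′ end at base 65. The position named Ppat was base 35, inside an NRF1 word that began at base 31. The 7 positions named Paics lay 141 bp and further to the left, between 0 and 92 bp from another annotated Paics start. In Abce1, a ribosome recycling factor, and Anapc10, a subunit of the anaphase-promoting complex (chr8:79711697-79711796), the closest positions were bases 52 and 58, to the right of annotated 5′ ends at bases 44 and 42.

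Pigp, of GPI anchor synthesis, and Ttc3, a ubiquitin ligase, met at chr16:94370673-94370772, with 5′ ends 1 bp apart and an overlapping pair of NRF1 words on opposite strands. The same overlap began at base 43 where Klhdc3 met Mea1 (chr17:46680901-46681006). It lay to the right of 5′ ends at bases 30 and 26. Cept1, of phospholipid synthesis, and Dram2, of autophagy, had 5′ ends 4 bp apart at chr3:106547761-106547860. At chr11:93885746-93885870 the position named Utp18, a ribosome biogenesis gene, was base 105. That base is a 5′ end of Mbtd1, a chromatin reader, and lay 84 bp outside Utp18.

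The next set holds the same-strand pairs chosen by the same rule, in which both symbols were at their own gene's annotated 5′ end.
Adat3 and Scamp4: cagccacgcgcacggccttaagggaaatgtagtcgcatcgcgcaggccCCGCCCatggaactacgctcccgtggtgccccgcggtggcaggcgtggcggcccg
Mipol1 and Prps1l3: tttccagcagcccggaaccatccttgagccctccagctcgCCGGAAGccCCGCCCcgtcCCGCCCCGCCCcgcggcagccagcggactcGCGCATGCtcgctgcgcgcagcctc
Mrps6 and Slc5a3: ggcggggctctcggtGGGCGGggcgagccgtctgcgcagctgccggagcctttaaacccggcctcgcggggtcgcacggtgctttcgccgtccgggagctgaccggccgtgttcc

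Adat3, a subunit of a tRNA deaminase, and Scamp4, a secretory carrier protein, were listed at bases 81 and 83 of chr10:80602800-80602902, the smallest distance of any pair with 2 protein-coding genes. Prps1l3 and Mipol1 were listed at bases 81 and 94 of chr12:57230332-57230445. Slc5a3, a myo-inositol transporter, and Mrps6, of the mitochondrial ribosome, were listed at bases 81 and 95 of chr16:92058242-92058356. All 6 genes are on the plus strand, so each of these pairs marked 1 start region with 2 annotated gene names.

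The last set was chosen after the values were seen, for genes of DNA repair, replication and protein degradation: 2 pairs listed at both ages, 1 at P28 only (Orc3 and Rars2) and 1 at P28.5 only (Chek2 and Hscb).
Cops5 and Cspp1: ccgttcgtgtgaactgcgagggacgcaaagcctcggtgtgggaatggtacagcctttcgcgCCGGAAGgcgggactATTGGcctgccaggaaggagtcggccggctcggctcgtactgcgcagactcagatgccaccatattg
Aimp2 and Pms2: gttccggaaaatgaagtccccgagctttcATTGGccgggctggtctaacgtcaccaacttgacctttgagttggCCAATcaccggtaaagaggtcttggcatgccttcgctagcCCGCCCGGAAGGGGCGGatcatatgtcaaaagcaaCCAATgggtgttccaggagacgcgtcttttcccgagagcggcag
Orc3 and Rars2: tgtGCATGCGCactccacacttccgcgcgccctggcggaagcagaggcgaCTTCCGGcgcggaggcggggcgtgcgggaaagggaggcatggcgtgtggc
Chek2 and Hscb: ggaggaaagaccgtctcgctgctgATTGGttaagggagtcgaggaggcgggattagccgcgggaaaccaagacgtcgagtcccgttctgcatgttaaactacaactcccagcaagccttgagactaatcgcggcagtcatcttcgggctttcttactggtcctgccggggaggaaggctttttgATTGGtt

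Cops5, the catalytic subunit of the COP9 signalosome, and Cspp1, a centrosome and spindle pole protein, met at chr1:10038096-10038238, where an ETS word that began at base 62 held the Cops5 5′ end at base 64. Aimp2, a scaffold of the tRNA synthetase complex, met the mismatch repair gene Pms2 at chr5:143909819-143910011. In that window an ETS word from base 119 overlapped an SP1 word from base 115 and ended where another began at base 126. There the position named Aimp2, base 83, was a 5′ end of Pms2. The origin recognition subunit Orc3 and the mitochondrial arginyl-tRNA synthetase Rars2 met at chr4:34614903-34615002, with an ETS word from base 51 and listed positions at bases 39 (Orc3) and 62 (Rars2) among others. The checkpoint kinase Chek2 and Hscb, of iron-sulfur cluster assembly, met at chr5:110839773-110839963, and the position named Hscb, base 28, was a 5′ end of Chek2.

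**Figure D1:**
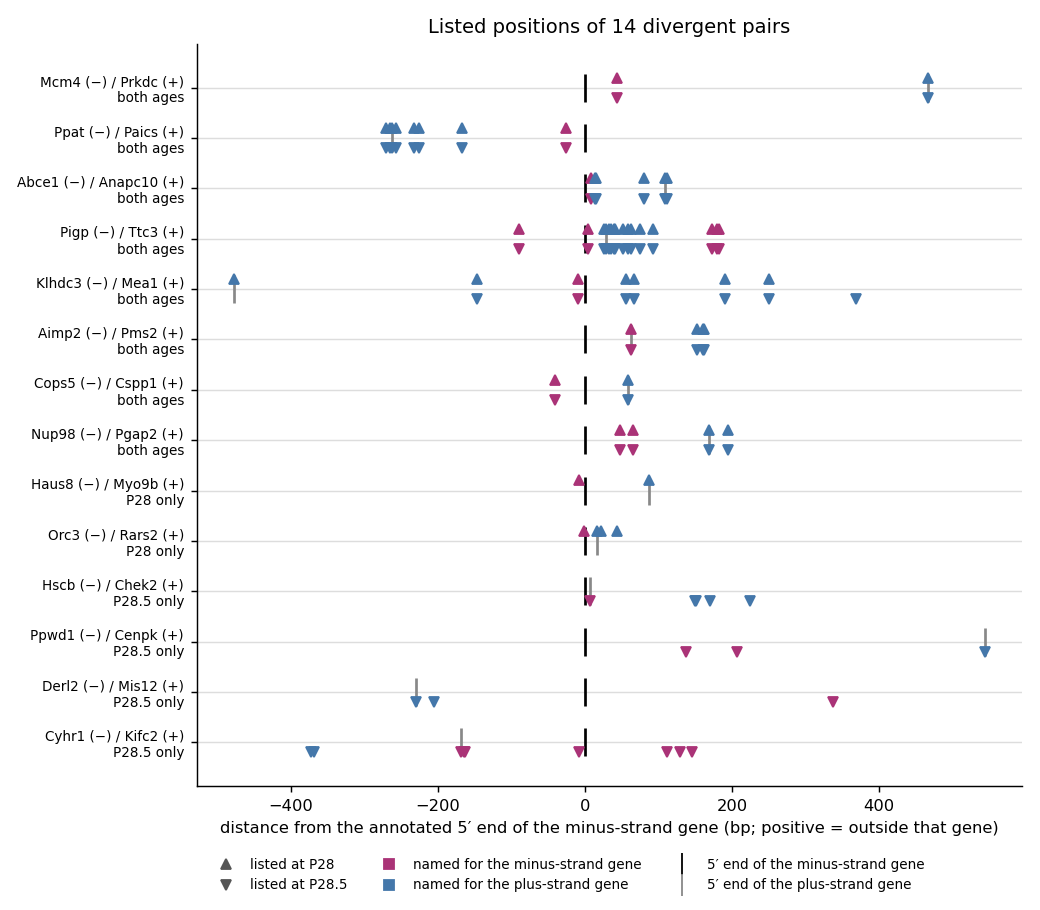
Listed positions of 14 divergent pairs against the annotated 5′ end of the minus-strand gene (x axis, bp, positive values outside that gene), with upward triangles for P28 and downward triangles for P28.5. Magenta positions carry the symbol of the minus-strand gene and blue ones that of the plus-strand gene, and in the 8 upper pairs nearly every position recurs at the other age.

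Of the 153 pairs, 130 (85.0%) were divergent, with a minus-strand gene to the left of a plus-strand gene. In 101 of them the 5′ ends nearest to the listed positions were apart, and in 29 the genes overlapped there. A further 8 pairs lay on the same strand, 11 were a gene nested in another on the same strand, 3 were nested on opposite strands and 1, Gm13306 and Gm2506, could not be classed. The divergent share was 81 of 94 pairs listed at both ages, 19 of 24 at P28 only and 30 of 35 at P28.5 only. Both genes were protein-coding in 118 pairs, of which 109 were divergent. No pair was convergent.

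The closest positions of a pair lay a median of 169 bp apart, and the range was 2 to 750 bp. In 102 pairs (66.7%) they were within 250 bp. The median was 158 bp for pairs of both ages, 187.5 bp for P28 only and 200 bp for P28.5 only. The limit of 1000 bp was reached by none: the widest pairs were Gm13306 and Gm2506 at 750 bp, Aldh16a1 and Pih1d1 at 737 bp, Hist1h2aa and Hist1h2ba at 737 bp, Rps2 and Snora64 at 726 bp, and Cdca3 and Usp5 at 670 bp. The first pairs outside it were Eno3 and Pfn1 at 1059 bp, 4930579K19Rik and Copb2 at 1271 bp, Ccl27b and Gm2506 at 1342 bp, Hist1h2af and Hist1h3g at 1507 bp, and Rras and Scaf1 at 1607 bp.

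The first comparison asked whether pairs found at 1 age were found again at the other age. Members at an age were chosen from that age's list alone and looked up in the other list, but the union over both ages used both lists, so the shares are descriptions. At P28 there were 118 pairs and at P28.5 there were 129, and 94 were pairs in both lists. These made up 79.7% of the P28 pairs and 72.9% of the P28.5 pairs, which left 24 pairs at P28 only and 35 at P28.5 only. In 85 of the 94 shared pairs every position was the same at both ages. The other 9 gained or lost positions, and in each at least 3 positions were kept: Akt1s1 and Mir707 went from 7 positions to 5, Klhdc3 and Mea1 kept 6 and exchanged 1, and Atp5j and Gabpa went from 3 to 4.

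Of the 382 member positions at P28, 323 (84.6%, interval 80.6 to 87.8%) were listed at P28.5. The background over all positions of the P28 list was 51.4%, and 49.5% of the 6762 positions that were no member were listed again. Of the 422 member positions at P28.5, 325 (77.0%, interval 72.8 to 80.8%) were listed at P28, against 70.7% of all positions and 70.1% of the 4771 others. Symbols followed the positions. Of 233 pair symbols at P28, 84.1% were listed at P28.5, against 48.1% of all symbols, and of 255 at P28.5, 79.6% were listed at P28, against 72.8%. The gap between members and the rest was wider from P28 than from P28.5.

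The P28 list also held positions far from any annotated start, so positions near a start were compared separately. Every one of the 382 P28 members had an annotated 5′ end at most 500 bp away, as did 85.8% of all P28 positions, while at P28.5 the shares were 99.8% and 98.8%. Only 4 members at P28 (1.05%) equalled the 3′ end of a transcript on the minus strand, against 10.3% of all positions. Among positions within 500 bp of an annotated 5′ end, 84.6% of members and 57.6% of others of the P28 list were found again at P28.5. From P28.5 it was 77.2% of members and 70.3% of others. Among positions on a plus-strand 5′ end, 85.2% of 176 members and 57.1% of 3044 others of the P28 list recurred, and from P28.5 it was 77.7% of 193 and 70.2% of 2476. Neighbouring positions within 1000 bp were then compared by their names. From P28, both neighbours were kept in 98 of 122 cases (80.3%) with different names and in 1716 of 2825 (60.7%) with the same name. From P28.5 the shares were 98 of 135 (72.6%) and 1717 of 2450 (70.1%). Positions of a pair are not independent, since the authors clustered a window around each TSS that is wider than any pair. The part that promoter type, transcript number and the size of each list had in these differences was not tested.

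**Figure D2:**
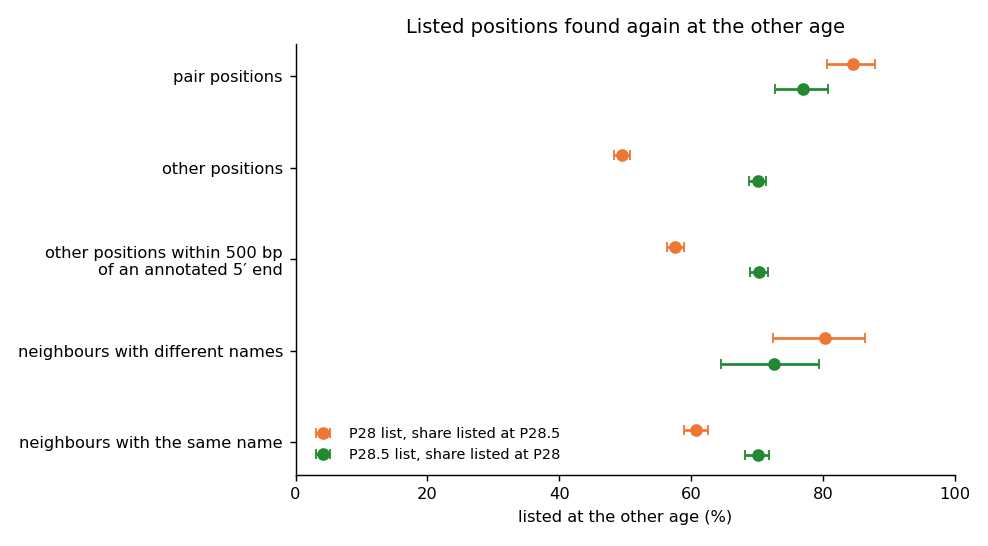
Share of listed positions, or of neighbouring positions within 1000 bp, found again at the other age (x axis, %), for the P28 list (orange) and the P28.5 list (green), with bars for 95% Wilson intervals of counting error. Pair positions of the P28 list recurred at 84.6% against 49.5% for other positions, and those of the P28.5 list at 77.0% against 70.1%.

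A pair listed at 1 age could be lost at the other because both positions left the list or because only 1 name did. Of the 24 pairs of P28 only, 13 had neither name within 1000 bp at P28.5 and 11 had 1. Of the 35 pairs of P28.5 only, 22 had neither name at P28 and 13 had 1. No pair kept both names further apart. Where 1 name stayed and the pair lay on opposite strands as divergent or nested genes, it was the plus-strand gene in 6 cases and the minus-strand gene in 4 from P28, and 6 and 6 from P28.5.

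Pairs with a gene of the spindle or kinetochore lists were found in all 3 age classes. Cenpk, an inner kinetochore gene, was listed at P28.5 at position 104229388 of chromosome 13, its annotated 5′ end, and its neighbour Ppwd1, a cyclophilin, at 104228981 and 104229051. At P28 only the name Ppwd1 was listed there. Mis12, which gives its name to a complex that joins the inner to the outer kinetochore, was listed at P28.5 at 71019611 and 71019635 of chromosome 11 beside Derl2, of the endoplasmic reticulum, at 71020178. At P28 only the name Mis12 stayed. Of the 49 genes of the kinetochore list, 10 were named at P28, none of them in a pair, and 11 at P28.5, of which these 2 were in pairs. Over all listed protein-coding genes, 207 of 3661 at P28 and 224 of 2528 at P28.5 were in pairs. Over all pairs, 35 of 153 were of P28.5 only.

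Haus8, of the augmin complex that branches spindle microtubules, was listed at P28 at 71272619 of chromosome 8, with the myosin gene Myo9b at 71272714. At P28.5 only the name Haus8 was within 1000 bp. Tubgcp2, of the gamma-tubulin complex, was listed at P28.5 at 140036820 of chromosome 7 beside Zfp511 at 140036391 and 140036514, and neither name was there at P28. Aurka, Bora, Mzt1, Anapc10 and Cdc27 were in pairs at both ages, with the same positions at each. In Aurka and Cstf1, Bora and Mzt1, and Cdc27 and Myl4 the annotated 5′ ends lay 433, 76 and 0 bp apart, and those of Bora and Mzt1 overlapped.

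In the meiosis I list only Stag3, the meiotic cohesin subunit, was in a pair. It was listed at 138280509 of chromosome 5, its annotated 5′ end, and Gpc2, a glypican on the other strand, at 138280105, 138280107 and 138280114. These 4 positions were the same at both ages. Of the 45 genes of that list, the P28 positions named 12 and the P28.5 positions named 11, with 1 in a pair at each age. The shares over all listed protein-coding genes were 207 of 3661 and 224 of 2528.

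The P28 list named 29 of 102 DNA repair genes, 2 of them in pairs, beside 207 of 3661 over all protein-coding genes. The P28.5 list named 28, 3 of them in pairs, beside 224 of 2528. Pms2 and Prkdc were in pairs at both ages. Rev3l, the catalytic subunit of a translesion polymerase, was in a pair at P28.5 only, with its 5′ end at 39732160 of chromosome 10 and the non-coding E130307A14Rik at 39732069 and 39732075. At P28 Orc3 was listed at 34614941 of chromosome 4 and Rars2 at 34614958, 34614964 and 34614986, with neither name there at P28.5. Also at P28, Orc4 was listed at 48950084 of chromosome 2 and Mbd5 at 5 positions between 48949490 and 48949508, and only Mbd5 was there at P28.5. At P28 Cdc45, a partner of the replicative helicase, had 3 positions between 18811819 and 18811868 of chromosome 16 and Ufd1 had 1 at 18812294, with neither at P28.5. Cdc45 and Ufd1 and the pair of Chek2 are outside the rule for named pairs and were chosen after their values were seen.

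Over all pairs, 94 of 153 (61.4%) were listed at both ages. All 4 pairs with a mitochondrial ribosome or respiratory chain gene were listed at both ages: Mrpl37 with Cyb5rl, Mrps6 with Slc5a3, Mrps18b with Ppp1r10, and Atp5j, of ATP synthase, with Gabpa, an ETS factor. The same was true of 4 pairs with a gene of the chaperone list: Dnajc17 with Zfyve19, Dnaja1 with Mir207, Hspb11 with Lrrc42, and Hsp90b1 with Ttc41. Of the cytosolic ribosomal proteins, Rps27a was in a pair with Clhc1 at both ages and Rps2 with its intronic Snora64 at P28 only. Of 28 listed ribosomal protein genes at P28 and 32 at P28.5, 2 and 1 were pair genes.

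No gene of the proteasome, RNA polymerase with general transcription factors, or SWI/SNF lists was in a pair, although 16, 31 and 8 of them were listed at P28. Over all protein-coding genes, 207 of 3661 listed at P28 and 224 of 2528 listed at P28.5 were in pairs. Over the 14 lists together it was 31 of 372 and 34 of 268, small RNA genes included. Of the small RNA genes alone, 11 of 100 listed at P28 and 13 of 31 listed at P28.5 were in pairs. The counts of the other lists are small, and no difference was tested.

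Among pairs of protein-coding genes, those of both ages with the most positions were Pigp and Ttc3 with 16, Mbtd1 and Utp18 with 9, and Paics and Ppat and Klhdc3 and Mea1 with 8 each. At P28 only the largest were Mbd5 and Orc4 with 6, Gpatch2 and Spata17, a testis-expressed gene, with 5, and Orc3 and Rars2, Ppil6 and Smpd2, Sgsh and Slc26a11, and Cdc45 and Ufd1 with 4 each. At P28.5 only they were Cyhr1 and Kifc2, a kinesin gene, with 9, Itfg1 and Phkb, of phosphorylase kinase, with 8, Fam210a and Rnmt, the mRNA cap methyltransferase, with 6, and Glmn and Rpap2 and Chek2 and Hscb with 5 each. In Cyhr1 and Kifc2 the name Cyhr1 stayed near at P28. All 8 positions of Itfg1 and Phkb appeared between 85840939 and 85841012 of chromosome 8 at P28.5, and none was listed at P28.

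Among pairs of protein-coding genes, the smallest distances at P28 only were 17 bp for Orc3 and Rars2, 25 bp for Sgsh, a lysosomal sulfatase, and Slc26a11, an anion transporter, 49 bp for Kat14 and Pet117, 56 bp for 4930449I24Rik and Gm3415, 75 bp for Ppil6 and Smpd2, and 95 bp for Haus8 and Myo9b. At P28.5 only they were 17 bp for Itfg1 and Phkb, 20 bp for Bbof1 and Entpd5, 26 bp for Fam210a and Rnmt, 42 bp for Chmp1a and Spata33, 47 bp for Sbds, of ribosome maturation, and Tyw1, of tRNA modification, and 68 bp for Alkbh4 and Lrwd1. Apart from Kat14 with Pet117 and 4930449I24Rik with Gm3415, which lay on the same strand, these were divergent.

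Small RNA genes were in 15 pairs, 9 of both ages, 2 of P28 only and 4 of P28.5 only. Of the 12 microRNA genes in pairs, 11 had a mature entry in the RefSeq table. In 8 of the 12 pairs with a microRNA the genes were nested on the same strand. Mir8092 and Zfp518a lay 2 bp apart, Mir207 and Dnaja1 5 bp, Mir8098 and Wdfy2 31 bp, and Mir707 and Akt1s1 64 bp. Mir707 was also paired with Tbc1d17, and these 3 symbols were the only chain longer than 2. Mir212 and Mir132, at 75173388 and 75173682 of chromosome 11 at both ages, were the only pair of 2 microRNA genes, and both positions were the annotated start of the hairpin. Their 3′ mature forms, at chr11:75173443-75173464 and chr11:75173723-75173744 of GRCm38.p6 (plus strand, RefSeq), are shown because they share a seed (bases 2 to 8, in capitals).
mmu-miR-212-3p: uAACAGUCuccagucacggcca
mmu-miR-132-3p: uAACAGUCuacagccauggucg

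The listed positions were set against RefSeq starts of GRCm38.p6. The annotation release that the authors clustered is not given in the sources used here, so a position that equals no start here may equal one there. With each position counted once, 3220 of 7144 P28 positions equalled a plus-strand 5′ end and 736 a minus-strand 3′ end, the lower ends of transcripts. Only 3 equalled a minus-strand 5′ end and 0 a plus-strand 3′ end, the higher ends. Of 5193 P28.5 positions the numbers were 2669, 73, 3 and 0. The reason was not tested. The 130 divergent pairs held 264 positions named for the plus-strand gene and 173 named for the minus-strand gene. Of the former, 155 (58.7%) equalled a 5′ end of the plus-strand gene and 239 lay within 50 bp of one. Of the latter, 3 equalled a 5′ end of the minus-strand gene, 26 equalled a 5′ end of the plus-strand gene and 140 equalled no RefSeq transcript end. Their median distance to a 5′ end of the gene they were named for was 52 bp, and 111 of 173 lay outside that gene. Of the 173, 86 (49.7%) were closer to a 5′ end of the minus-strand gene than of its partner. For positions named for the plus-strand gene, 260 of 264 (98.5%) were closer to their own gene. In 126 of 130 divergent pairs no listed position was on a 5′ end of the minus-strand gene, while 119 had one on the plus-strand gene. As minus-strand 5′ ends were nearly absent from both whole lists, this was not particular to the pairs. In 104 pairs the closest position named for the minus-strand gene had the lower coordinate. Recurrence was also counted for each kind of position. From P28, 86.2% of 123 named for the minus-strand gene and 86.5% of 208 named for the plus-strand gene were listed at P28.5, and from P28.5 it was 73.3% of 150 and 79.3% of 227.

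Annotated divergent genes showed what the naming left out. RefSeq held 1296 pairs of protein-coding genes on opposite strands, facing away from each other, with 5′ ends within 1000 bp. Both names were listed in 115 (8.87%) at P28 and in 100 (7.72%) at P28.5, of which 85 and 95 were pairs by the rule. Only the plus-strand name was listed in 536 and 541, only the minus-strand name in 65 and 42, and neither in 580 and 613. A listed position of any name lay within 1000 bp of a 5′ end of each gene in 640 (49.4%) at P28 and in 665 (51.3%) at P28.5. This last count used no names and could take a different position for each gene. By design it was wider than the count of both names. Both lists nearly lacked minus-strand 5′ ends, so the name counts do not compare the strands.

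Plus-strand genes in an annotated divergent pair were listed by name more often than others: 647 of 1285 (50.4%) against 2184 of 9586 (22.8%) at P28, and 633 (49.3%) against 1583 (16.5%) at P28.5. For minus-strand genes the shares were lower at both ages, in lists nearly without minus-strand 5′ ends, so they do not compare ARID2 between strands. They were 180 of 1289 (13.96%) against 650 of 9614 (6.76%) at P28, and 142 (11.02%) against 170 (1.77%) at P28.5.

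**Figure D3:**
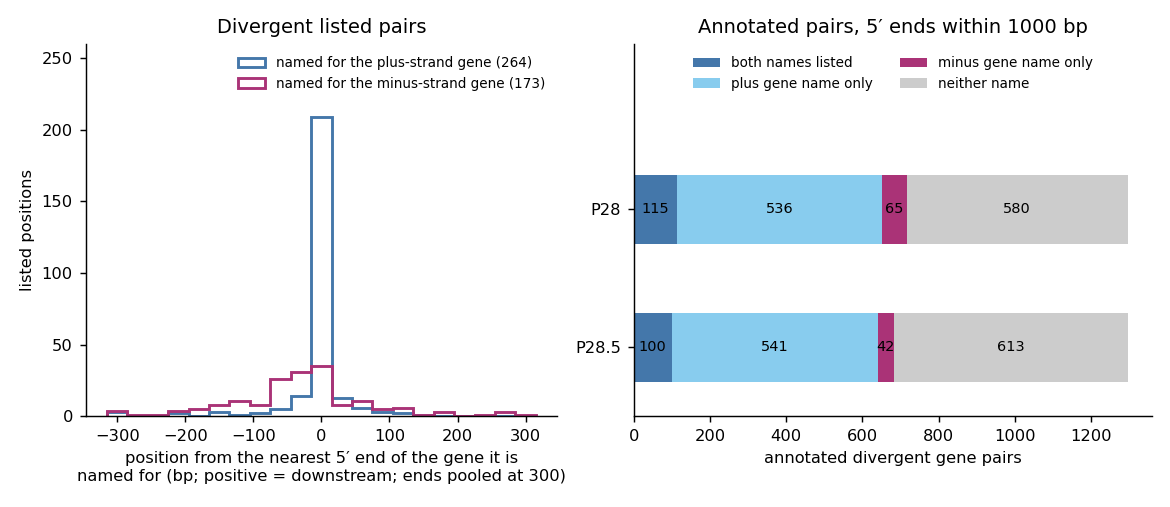
Left, listed positions of divergent pairs by their distance from the nearest annotated 5′ end of the gene they are named for (x axis, bp, positive values downstream), for 264 positions named for the plus-strand gene (blue) and 173 named for the minus-strand gene (magenta). Right, the 1296 annotated divergent protein-coding pairs by which names were listed at each age, where the plus-strand name alone was listed in 536 at P28 and in 541 at P28.5.

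Of 15 textbook head-to-head pairs, Prkdc with Mcm4 and Paics with Ppat were pairs at both ages, at the same positions. Another 8 at P28 and 9 at P28.5 had 1 name listed. The single name was in every case that of the plus-strand gene, and both lists nearly lacked minus-strand 5′ ends. Examples were Hspe1 but not Hspd1, Nbr1 but not Brca1, Npat but not Atm, and Son but not Gart. Others were Sars2 but not Mrps12, Psmd13 but not Sirt3, and Tmem258 but not Fen1. Trmt2a joined these at P28.5 with 2 positions, without Ranbp1. Surf1 with Surf2, Col4a1 with Col4a2, Hars with Hars2, and Tap1 with Psmb9 had no listed position at either age.

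Pair promoters were CpG-rich. In 1000 bp around the midpoint of the closest positions, the median ratio of observed to expected CpG was 0.803 (quartiles 0.722 and 0.871) over the 153 pairs. It was 0.766 over all 1296 annotated divergent pairs, 0.748 over 3943 other listed genes, 0.701 over 446 annotated divergent pairs with neither name listed at either age and 0.525 over all 21774 protein-coding 5′ ends. All 94 pairs of both ages lay above that last value, as did 21 of 24 of P28 only and 34 of 35 of P28.5 only. So did 89.0% of all annotated divergent pairs and 78.7% of the other listed genes. The medians of the 3 age classes were 0.821, 0.781 and 0.759. The lowest ratios were 0.179 for Wfdc6b and Wfdc8, 0.223 for 4930449I24Rik and Gm3415, 0.256 for Gm13306 and Gm2506, and 0.321 for Mbd5 and Orc4, none of them a pair at both ages. These were named after their values were seen.

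The ETS word CCGGAAG stood in 46 of 153 pair windows of 300 bp (30.1%, interval 23.4 to 37.7%). It stood in 17.6% of windows at other listed genes and in 26.7% of windows between annotated divergent genes. Of 17492 protein-coding promoters of the RefSeq table, which are of the same length, 11.9% had it. The windows were placed differently: pair windows were centred between the closest positions, and those of other listed genes on a listed position. The RefSeq promoters were used as the table gives them. Of the 446 annotated divergent pairs with neither name listed, 23.3% had it (interval 19.6 to 27.5%). The intervals of these and of the listed pairs overlapped, and the difference was not tested. The SP1 word was in 63.4% of pair windows and 61.7% of other listed windows, and the NFY word in 39.2% and 41.4%. The NRF1 word was in 5.23% and 6.49% of these windows, and in 3.61% of all promoters. The YY1 word was in 7.19% of pair windows, 7.48% of windows between annotated divergent genes, 5.5% at other listed genes and 3.22% of all promoters. All 11 pair windows with it were among the 94 of both ages, and the difference from the other pairs was not tested. TATAAA was in 5.23% of pair windows and 13.3% of all promoters. Matches on either strand were counted, words may overlap, and a match is a description of the letters, not of a bound factor.

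**Figure D4:**
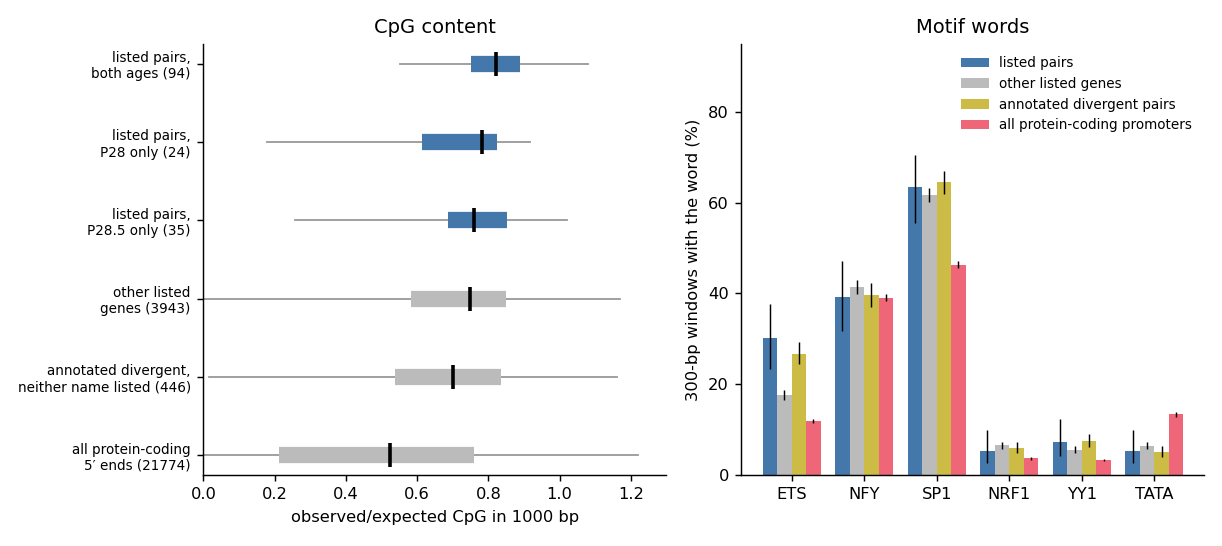
Left, ratio of observed to expected CpG in 1000 bp (x axis), with black marks for medians, thick bars for quartiles, thin lines for the range and the number of regions in parentheses. Right, share of 300-bp windows with each motif word (y axis, %), with bars for 95% Wilson intervals, where the ETS word is in 30.1% of listed pairs and 17.6% of other listed genes.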

How the data were processed

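Spermatogenic cells of both ages were profiled for ARID2 by CUT&RUN. The authors trimmed the reads, aligned them to mm10 with Bowtie2, removed duplicates, scaled coverage, divided by the control on a log2 scale, averaged the replicates and clustered RefSeq TSSs with deepTools. The deposited lists of the ARID2-enriched cluster hold genomic positions, not counts or scores. Distinct positions were read per list, and pairs were differently named positions within 1000 bp. The finder was tested on simulated positions. Symbols and 5′ ends came from RefSeq's GRCm38.p6 annotation, and Python 3.11.15 was used. The lists do not give the depth behind a position. No test was run, so no p-value is given. The BRG1 and control libraries were not analysed here.

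The named pairs were, per age class among coding pairs, the 6 closest and the 4 with most positions, up to 4 per gene list (pairs of both ages first), textbook pairs, the longest chains, and those nearest the distance limit. Names outside this rule are marked or come from the background. The members and lists were chosen with earlier results of these data known. Alternatives were other distances, symbol and position filters, longest transcripts and windows of 500 bp. Comparisons with positions near annotated 5′ ends, and with neighbours of the same name, were added after seeing the data. The names of 1 textbook pair are not reported here.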

Additional observations from a re-analysis of the deposited data

How the results depend on the processing

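With positions at most 250 bp apart, member positions fell to 244 at P28 and 275 at P28.5. With only positions that equal an annotated transcript end, they fell to 86 and 97, and gene pairs to 33 at P28 and 37 at P28.5. This follows from the filter. Of the positions in divergent pairs it leaves out 140 of 173 named for minus-strand genes and 109 of 264 named for plus-strand genes. The share of pairs with 5′ ends apart was 38.6% by the longest transcript, since annotated starts then overlapped more often. Annotated divergent pairs reached 49.4% at P28 and 51.3% at P28.5 when any listed position near both genes counted. The other 49 recomputed values, which include every share of pairs and positions found at the other age, stayed within 1.5 times for counts, within the 95% interval for shares and within the quartiles for CpG content.

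No paired analysis was possible because each list was made from averaged replicates and no result comes from a test. No replicate was left out for the same reason.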

Other observations

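Chromosome 16 had the largest share of its listed positions in pairs, 36 of 291 (12.4%) over both ages, against 498 of 8666 over all chromosomes. It held 8 pairs, 7 of them listed at both ages, and 16 of its 36 member positions were those of Pigp and Ttc3. On chromosome 6 the share was 9 of 402 (2.24%). No pair lay on the X or Y chromosome, which had 3 and 4 listed positions.

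Among the 3671 positions listed at both ages, 8 carried a different symbol at each age. None of them was a member, so no pair changed its name between the ages.

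The 20 pairs with a long non-coding RNA gene were split as 8 of both ages, 5 of P28 only and 7 of P28.5 only. Pairs of Stam with Stamos and of Cep83 with Cep83os joined a gene to a transcript named as its opposite strand, and were listed at P28 only and at P28.5 only. At P28.5 the name Stam stayed within 1000 bp, and at P28 neither name of the Cep83 pair was there.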
